A study of Bos indicus with 9 samples.

Results

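Corpora lutea of cows given a superovulatory dose of equine chorionic gonadotropin (eCG) were compared with corpora lutea of cows given a low dose, across every gene on the array. The comparison takes 6 of the 9 arrays of the series, chosen by their titles: 3 superovulated and 3 stimulated arrays. In superovulated cows 2000 IU of the hormone was given on day 4 of an oestrous synchronisation, and in stimulated cows 400 IU on day 8. The remaining 3 arrays are controls, which were synchronised in the same way but given no eCG. All animals were Nelore crossbred cows (Bos indicus) aged 2 to 5 years, kept on pasture with supplements, and all were synchronised with progesterone devices and estradiol benzoate. The glands were taken at slaughter on day 6 after ovulation. Total RNA of 1 animal went on each Affymetrix bovine array, so each group has 3 animals. Dose and day of eCG differ together between the treated groups, and their effects cannot be told apart here. How many corpora lutea an animal carried, and which of them was used, is not given in the sources used here.

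The corpus luteum forms from the ruptured follicle after ovulation. Its luteal cells import or make cholesterol and convert it to progesterone under the control of luteinizing hormone, while a dense capillary bed supplies them and resident macrophages and other leukocytes take part in the growth and regression of the gland. Equine chorionic gonadotropin binds both the luteinizing hormone and the follicle-stimulating hormone receptors of cattle and stays in the circulation for days. Low doses are used to support a single ovulation, and high doses to bring several follicles to ovulation.

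The tissue label could be checked against steroidogenic genes, which were bright on every array. STAR, which moves cholesterol into mitochondria, had log2 signals of 14.55 to 14.81 in the 6 eCG arrays. CYP11A1, which cuts the cholesterol side chain, had 13.92 to 14.30, and HSD3B1, which makes progesterone from pregnenolone, had 14.21 to 14.53. Over all probe sets the correlation between arrays was 0.988 to 0.992 within the superovulated group, 0.992 to 0.994 within the stimulated group and 0.986 to 0.993 between them. Superovulated arrays 2 and 3 lay farthest from the other arrays of their group, with root mean square differences of 0.424 and 0.442 on the log2 scale against 0.312 to 0.391 for the 7 other arrays. Differences between 3 prime and 5 prime probe sets of 6 control transcripts, a sign of RNA integrity, overlapped between the treated groups for 5 transcripts. For the GST control they did not: the stimulated arrays had -0.78, -0.30 and -0.46 and the superovulated arrays -0.19, -0.20 and -0.10, with a 2-sided exact permutation p of 0.1, the smallest that 3 against 3 arrays allow. The part of these array differences in the results was not tested.

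Of 23951 probe sets tested, 1 passed an adjusted p of 0.05 as higher in the superovulated group, or 0.00418%, and 0 passed as lower. That probe set is PRSS2, a trypsinogen (0.011% of genes, when each gene is counted once). At an unadjusted p under 0.05 in limma, 972 probe sets were higher (4.06%) and 1340 lower (5.59%). All superovulated values exceeded all stimulated values in 1590 probe sets (6.64%), and the reverse held in 1650 (6.89%). The split between higher and lower depended on how arrays were scaled: 42.0% of these probe sets were higher with the values as deposited, 48.0% after quantile normalisation and 55.9% after centring each array on its median. Represented by 1 probe set each, 9128 genes could be named. Of these, 446 were higher at unadjusted p under 0.05 (4.89%) and 382 lower (4.18%), with a median log2 fold change of 0.013. The 3 superovulated values all lay above the 3 stimulated values for 651 genes (7.13%) and all below for 525 (5.75%). Log2 fold changes above 1 were seen for 78 genes (0.855%) and below -1 for 79 (0.865%). All fold changes given here are superovulated minus stimulated on the log2 scale, and genes other than PRSS2 are described by their values, since none of them passed after adjustment over all probe sets.

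**Figure D1:**
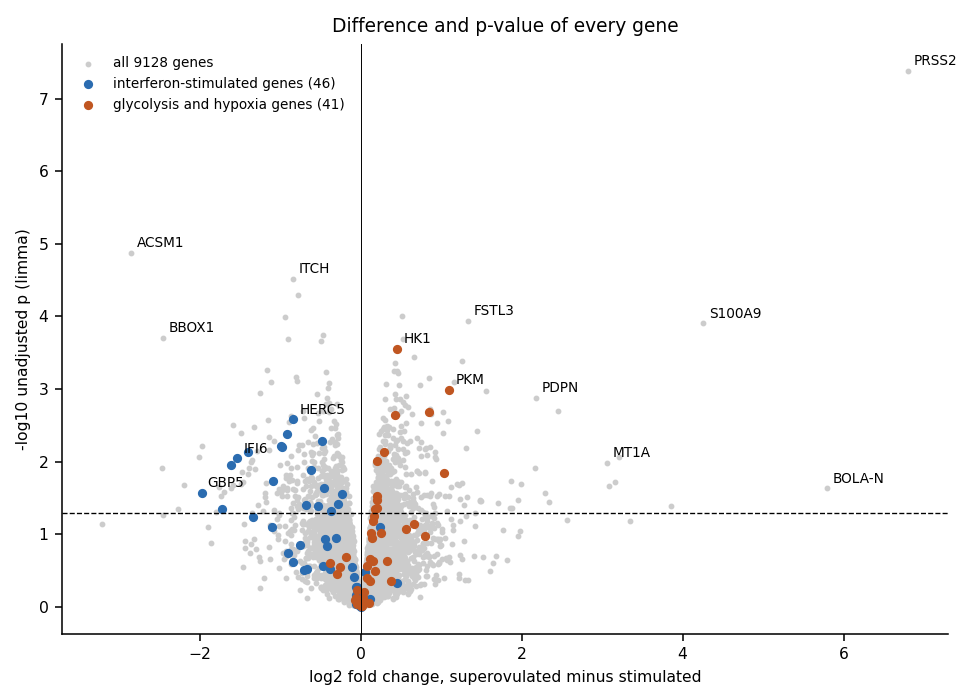
Log2 fold change (x axis, superovulated minus stimulated) against the -log10 of the unadjusted limma p-value (y axis) for each of 9128 genes in grey, with 46 interferon-stimulated genes in blue, 41 glycolysis and hypoxia genes in orange and a dashed line at 0.05. PRSS2 stands alone at the upper right with a log2 fold change of 6.80, most interferon-stimulated genes lie left of 0, and most glycolysis and hypoxia genes lie right of it.

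PRSS2, which encodes a pancreatic-type trypsin precursor, had log2 signals of 2.51, 2.18 and 2.25 in the stimulated animals and 9.83, 8.94 and 8.57 in the superovulated animals. The groups were far apart, and the stimulated mean exceeded only 13.3% of all probe sets on the array. No detection calls were used here, so the stimulated values are not shown to lie above background, and the true ratio may be larger than the measured one. PRSS2 rose by 6.80 ± 0.33 (SE) on the log2 scale in superovulated over stimulated glands, with an adjusted p of 0.000989 in limma with Benjamini-Hochberg adjustment. In the control animals its values were 8.24, 8.54 and 7.76, on the side of the superovulated group. With any 1 array left out the log2 fold change lay between 6.44 and 7.07, and the adjusted p between 0.000991 and 0.017. The array holds 1 probe set for PRSS2 with a single symbol, so no other probe set of the gene could be compared. In bulk tissue such a difference can come from fewer cells of a type or from less RNA per cell, which cannot be told apart here.

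Other trypsin-like proteases and their inhibitors did not show differences of that size. Of 41 genes of this list, 4 were higher at unadjusted p under 0.05 (9.76% against 4.89% of all genes) and 1 was lower, and the median log2 fold change was 0.10. Besides PRSS2 the higher genes were PRSS12, a serine protease known as neurotrypsin, at 0.42 ± 0.14 (SE; 0.16 with its probe sets averaged), SERPINB1, an inhibitor of neutrophil proteases, at 0.29 ± 0.11, and ST14, the membrane protease matriptase, at 0.18 ± 0.07. SPINT2, a Kunitz-type inhibitor of membrane proteases, had 12.18, 11.85 and 12.14 in stimulated and 11.57, 11.31 and 11.84 in superovulated glands, a log2 fold change of -0.48 ± 0.17. The count of higher genes was 8 when superovulated replicate 3 was left out, 2 when stimulated replicate 3 was, and 1 when either stimulated replicate 1 or superovulated replicate 2 was.

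**Figure D2:**
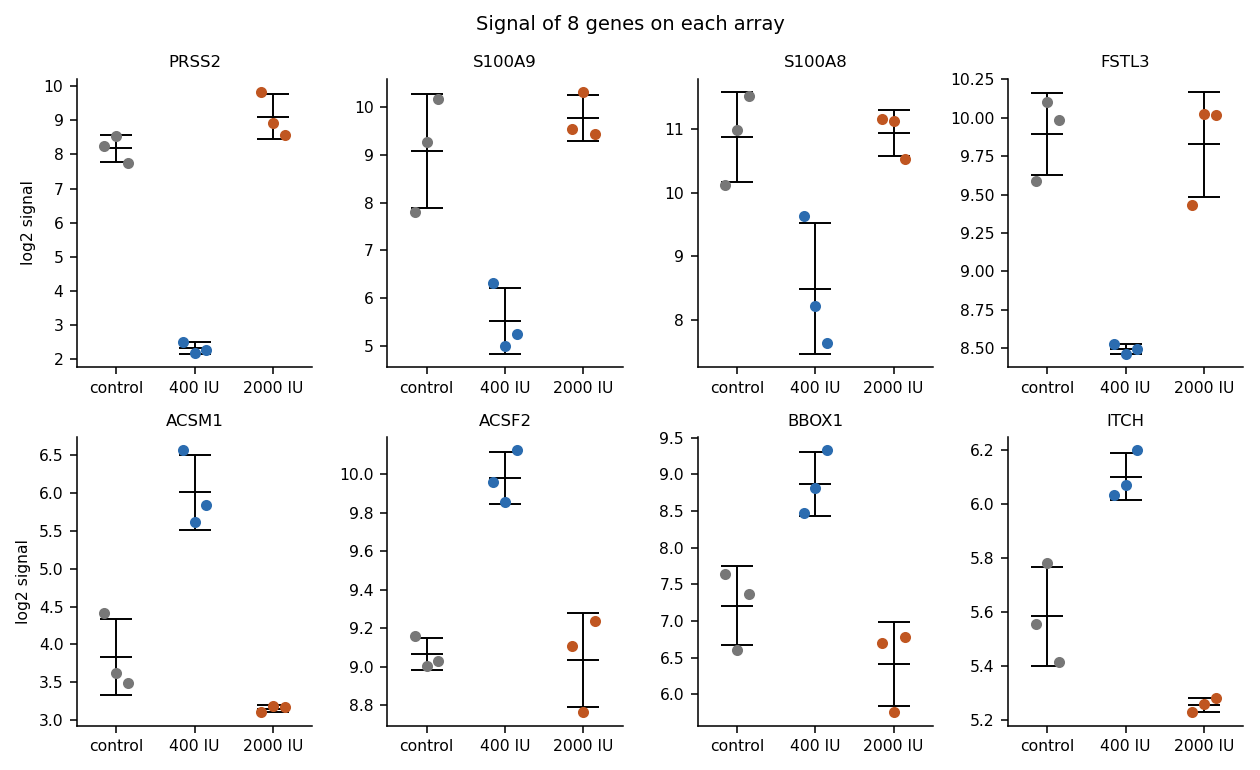
Log2 signal (y axis, a separate scale for each panel) of 8 genes on each of the 9 arrays, with points for animals, a horizontal line for the group mean and bars for the SD over 3 animals. The stimulated animals (400 IU) stand apart from the superovulated animals (2000 IU) in each panel, low for PRSS2, S100A9, S100A8 and FSTL3 and high for ACSM1, ACSF2, BBOX1 and ITCH, while the control mean lies nearer the superovulated mean.

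Among the genes with the smallest p-values on the higher side, picked for groups without overlap, FSTL3 and S100A9 had the largest differences. FSTL3, a secreted protein that binds and blocks activins and myostatin, had 8.53, 8.46 and 8.49 in stimulated and 9.43, 10.03 and 10.02 in superovulated animals. The stimulated values were close together and below all superovulated values, and the log2 fold change was 1.33 ± 0.19 (SE) with an adjusted p of 0.171. S100A9, a subunit of the calcium-binding protein calprotectin of neutrophils and monocytes, had 6.30, 5.00 and 5.24 against 9.54, 10.32 and 9.44. Its log2 fold change of 4.25 ± 0.61 did not pass either, with an adjusted p of 0.176. Another S100A9 probe set gave 2.28, and the mean of both was 3.27. TFRC, the transferrin receptor that takes up iron, had 4.84, 4.17 and 4.01 against 5.44, 5.51 and 5.87, or 1.26 ± 0.21 on the log2 scale (adjusted p = 0.27). ATF3, a transcription factor induced by cell stress, had 3.68, 3.49 and 3.72 against 4.52, 4.18 and 4.17, a log2 fold change of 0.66 ± 0.11 (adjusted p = 0.266). ATF3 was also higher in the superovulated than in the control animals, whose values of 3.52 to 3.57 lay within the stimulated range. The other 5 genes of this group had small differences. BZW1, a regulator of translation start, had 0.52 (0.35 with its probe sets averaged), HK1, a hexokinase, 0.46 and NRBP1, a pseudokinase adaptor, 0.45. CCNC, the cyclin of the Mediator kinase module, had 0.42. SYMPK, a scaffold of messenger RNA 3 prime end processing, also had 0.42 (0.28 with its probe sets averaged). CCNC was at 9.12 to 9.13 in the stimulated animals and 9.49 to 9.66 in the superovulated animals.

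On the lower side ACSM1, a mitochondrial medium-chain acyl-CoA synthetase, had the smallest p-value. It had 6.56, 5.61 and 5.84 in stimulated and 3.10, 3.18 and 3.18 in superovulated animals, with no overlap and little spread in the superovulated group. The log2 fold change was -2.85 ± 0.30 (SE) with an adjusted p of 0.0799, which did not pass. ACSM1 has 1 probe set, so averaging the probe sets of each gene before the fit left its difference at -2.85. In that fit p-values were adjusted over genes and not over the larger number of probe sets. ACSM1 then passed, at an adjusted p of 0.0414, which is no second measurement of its difference. ACSF2, another mitochondrial acyl-CoA synthetase, had 9.96, 9.86 and 10.12 against 9.11, 8.76 and 9.24, a log2 fold change of -0.94 ± 0.13 (adjusted p = 0.165). BBOX1, which makes the last step of carnitine synthesis and so serves fatty acid transport into mitochondria, had 8.47, 8.82 and 9.33 against 6.70, 5.75 and 6.78. Its log2 fold change was -2.46 ± 0.37 (adjusted p = 0.214). These 3 genes serve fatty acid activation and transport. They were picked by a rule that required groups without overlap, so their separation was fixed by the selection.

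ITCH, a ubiquitin ligase of the NEDD4 family, had 6.03, 6.07 and 6.20 in stimulated and 5.23, 5.26 and 5.28 in superovulated animals, a log2 fold change of -0.84 ± 0.10 (adjusted p = 0.097). NSD3, a histone H3 lysine methyltransferase, had 6.96, 7.19 and 7.23 against 6.47, 6.34 and 6.25, a log2 fold change of -0.77 ± 0.10 (adjusted p = 0.133). The other NSD3 probe sets gave -0.61 to 0.032, and the mean over all of them was -0.31. For NSD3 the control animals, at 6.82 to 6.98, lay nearer the stimulated animals, unlike for ITCH, at 5.41 to 5.78. FCGR3A, an Fc receptor of natural killer cells and macrophages, differed by -0.90 ± 0.14, and CCL3, a chemokine that draws in monocytes, by -0.47 ± 0.07, both with an adjusted p of 0.214. ALG13, part of the enzyme for the second sugar of N-linked glycans, differed by -1.17 ± 0.21, NAPEPLD, which releases N-acylethanolamines from membrane lipids, by -0.49 ± 0.08, and LOC510377, known by its locus number alone, by -0.43 ± 0.08. None of them passed.

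The wider list of acyl-CoA synthetase, fatty acid and lipid droplet genes had no common direction. Of 55 genes, 4 were higher (7.27%) and 3 lower (5.45%) at unadjusted p under 0.05, shares near those of all genes, and the median log2 fold change was -0.025, with a sign that turned under median centring. ACSM1, ACSF2 and CD36, a fatty acid importer at -0.76 ± 0.20 (SE), were the lower ones. PLIN2, which coats lipid droplets, was higher, at 11.79 to 12.03 in stimulated and 12.14 to 12.79 in superovulated animals, with a log2 fold change of 0.61 ± 0.24. FADS2, a fatty acid desaturase, had 0.43 ± 0.12 and ACSL3, a long-chain acyl-CoA synthetase of lipid droplets, 0.43 ± 0.13 (0.16 with its ACSL3 probe sets averaged). Without stimulated replicate 2, and likewise with the replicate number as a block, 10 genes of this list were lower at that threshold. Without superovulated replicate 3, 2 were higher.

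Interferon-stimulated genes made up the list with the largest share of lower genes in superovulated glands. Of 46 genes, 18 were lower at unadjusted p under 0.05 (39.1% against 4.18% of all genes) and 0 were higher, and 40 had a negative log2 fold change. The median was -0.45, beside 0.013 over all genes. For 17 genes (37.0% against 5.75%) all superovulated values lay below all stimulated values, and 0 genes passed after adjustment. The mean log2 signal of the list was 7.83, 7.37 and 7.62 in the stimulated and 7.32, 6.84 and 7.05 in the superovulated animals, without overlap. In the controls it was 6.82, 7.26 and 6.71, overlapping the superovulated animals and below the stimulated animals. Leaving out either stimulated replicate 1 or superovulated replicate 2 brought the count of lower genes to 9, and the median stayed between -0.52 and -0.32 with any 1 array left out. The stimulated arrays also serve in the comparison with the controls, and the list was chosen knowing that result, so the count is no independent evidence of its direction.

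GBP5, IFI44, RSAD2, IFI6 and GBP4 had the largest fold changes of the list among genes at that threshold. GBP5, a guanylate-binding protein that acts in inflammasome activation, had a log2 fold change of -1.97 ± 0.73 (SE). Its groups overlapped in this brightest probe set: 9.38, 7.79 and 7.60 in stimulated and 6.11, 5.12 and 7.62 in superovulated animals. Other GBP5 probe sets gave -2.00 and -1.86 without overlap and, where dim, -0.34 with overlap. IFI44, an interferon-induced cytosolic protein, also overlapped and had -1.72 ± 0.72, or -1.13 without superovulated replicate 2. RSAD2, or viperin, which makes a chain-terminating nucleotide, had 6.11, 5.29 and 5.24 against 4.39, 3.75 and 3.68, a log2 fold change of -1.61 ± 0.49 without overlap. IFI6, a mitochondrial protein that limits apoptosis, had 11.32, 10.96 and 11.70 against 10.41, 9.07 and 9.91 (-1.53 ± 0.44). GBP4 had -1.40 ± 0.39 and XAF1, an antagonist of an apoptosis inhibitor, -1.09 ± 0.37, both without overlap.

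The genes of this list with the smallest p-values were HERC5, the ligase that attaches ISG15 to proteins, IFI44L, ZNFX1, an RNA helicase sensor, and PARP9, a partner of the ligase DTX3L. HERC5 had 4.13, 4.42 and 4.59 in stimulated and 3.92, 3.49 and 3.21 in superovulated animals, or -0.84 ± 0.19 (SE) on the log2 scale, with an adjusted p of 0.353. Log2 fold changes were -0.91 ± 0.23 for IFI44L, -0.48 ± 0.13 for ZNFX1 and -0.99 ± 0.27 for PARP9, each with separate groups and adjusted p of 0.366 to 0.381. Averaging the probe sets of ZNFX1 gave -0.24. IRF9, the DNA-binding part of the interferon-activated complex ISGF3, had 8.08, 7.80 and 8.02 against 7.36, 6.72 and 6.91 (-0.97 ± 0.26). USP18, which removes ISG15 and damps interferon receptor signalling, had -0.23 ± 0.09 (-0.58 over all its probe sets), and UBA7, the ISG15 activating enzyme, -0.62 ± 0.19. Several well-known members differed less clearly: ISG15 itself had -0.71 ± 0.65 and MX1, an antiviral GTPase, -0.90 ± 0.61, both with overlapping groups, and the chemokine CXCL10 had -0.06 ± 0.50. The list member IFI27 had -1.10 ± 0.55, without overlap. ISG12(B), a relative of IFI27 that is not in the list and was picked out after its values were seen, lay the other way, at 5.27, 5.65 and 5.41 in stimulated and 6.50, 8.93 and 6.50 in superovulated animals (1.87 ± 0.63, adjusted p = 0.45), and at 1.06 without superovulated replicate 2.

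**Figure D3:**
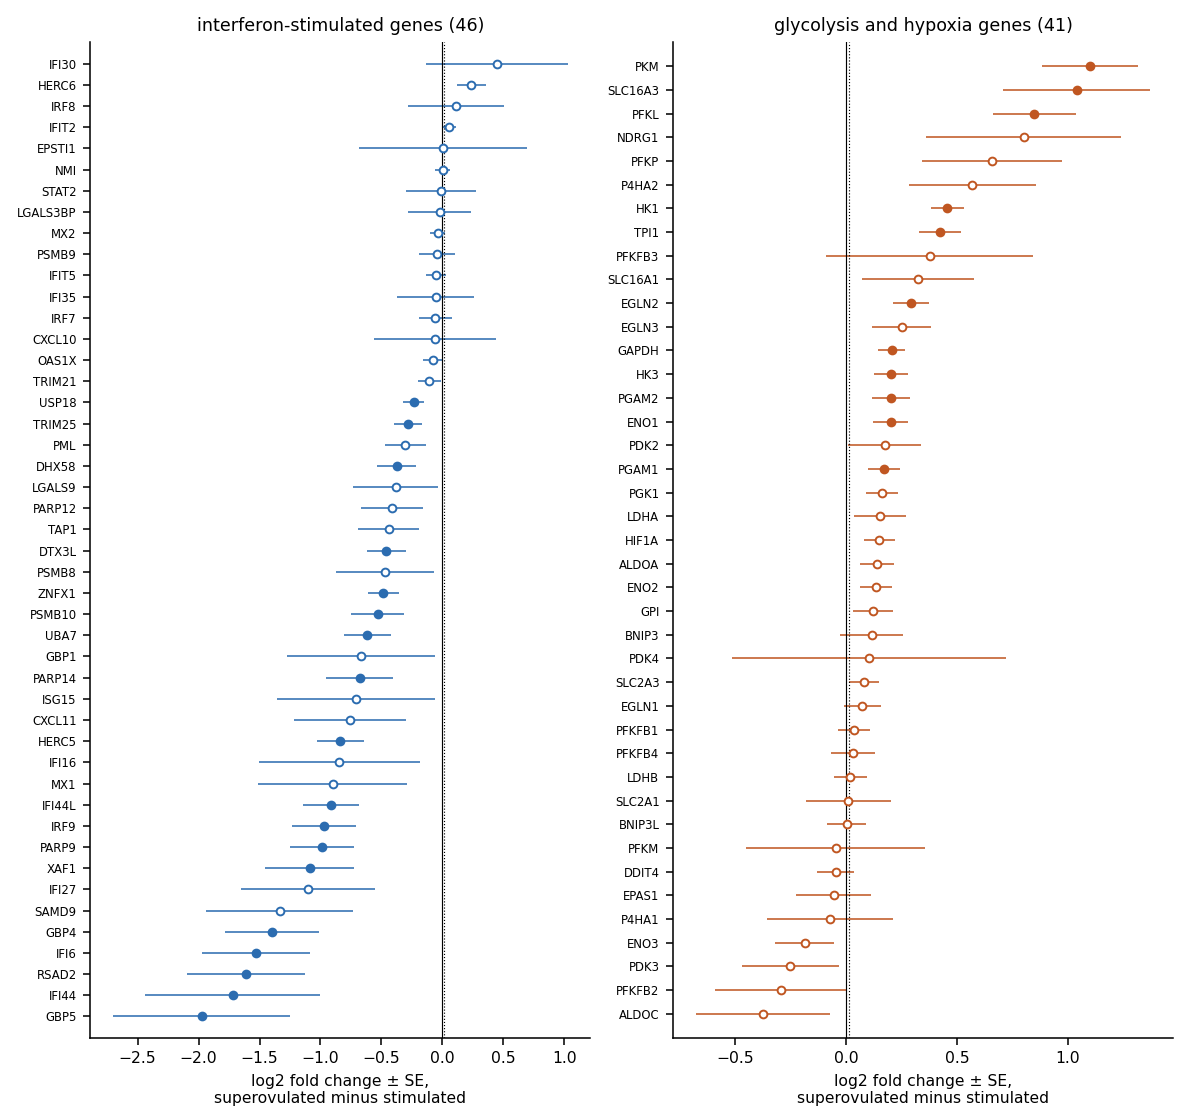
Log2 fold change with its SE (x axis, superovulated minus stimulated) for each of the 46 interferon-stimulated genes (left) and the 41 glycolysis and hypoxia genes (right), sorted by value, with filled points at unadjusted p under 0.05 and a dotted line at the median of all genes. On the left 18 points are filled and all lie below 0, while on the right 11 are filled and all lie above 0.

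Leukocyte markers were read beside the interferon-stimulated genes, and their part in those differences was not tested. Of 34 macrophage and myeloid markers, 5 were lower at unadjusted p under 0.05 (14.7% against 4.18% of all genes). Higher was 1 (2.94% against 4.89%), and the median log2 fold change was -0.22. That median ran from -0.44 without superovulated replicate 2 to -0.080 without stimulated replicate 2. The mean log2 signal of this list overlapped, at 6.32, 7.19 and 6.67 in stimulated and 6.13, 6.88 and 6.10 in superovulated animals, and was 5.18 to 6.00 in the controls. Stimulated replicate 2 and superovulated replicate 2 were the highest of their groups. Between same-numbered animals, a comparison added after the values were seen, the list mean was lower in each superovulated animal, by differences of -0.19, -0.30 and -0.57. C1QB and C1QC, chains of the complement starter C1q made by macrophages, had log2 fold changes of -1.76 ± 0.62 (SE) and -1.38 ± 0.42, without overlap. The remaining chain, C1QA, had -0.94 ± 0.54 with overlap. CD53, a leukocyte tetraspanin, had -1.17 ± 0.46 without overlap, and CYBB, the catalytic subunit of the phagocyte oxidase, -0.98 ± 0.37 with overlap. The defining macrophage markers CD68 (-0.66 ± 0.59), AIF1 (-0.10 ± 0.36) and CSF1R (-0.50 ± 0.41) overlapped between the groups, though CD68 and CSF1R were lower in the superovulated animal of all 3 same-numbered pairs. NCF4, a cytosolic subunit of the same oxidase, was the higher one, at 0.40 ± 0.14, with overlap. The count of lower markers was 2 without stimulated replicate 3 or without superovulated replicate 1, and 3 without stimulated replicate 2 or without superovulated replicate 3. With the replicate number as a block 3 markers were higher.

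Of 25 neutrophil markers, 4 were higher at unadjusted p under 0.05 (16% against 4.89% of all genes) and 0 lower (against 4.18%), and the median log2 fold change was 0.079. The list mean was 3.62, 3.64 and 3.54 in stimulated, 4.13, 4.24 and 3.98 in superovulated and 3.77 to 4.08 in control animals. Besides S100A9 these were S100A8, the other calprotectin subunit, S100A12, a related calcium-binding protein, and OLR1, a scavenger receptor that binds oxidised lipoprotein and is also made by endothelium and macrophages. S100A8 had 9.63, 8.21 and 7.63 in stimulated and 11.16, 11.13 and 10.53 in superovulated animals, a difference of 2.45 ± 0.54 (SE) with an adjusted p of 0.336. OLR1 differed by 2.34 ± 0.93, or 1.52 without stimulated replicate 1. S100A12 differed by 1.88 ± 0.78, or 1.07 without superovulated replicate 2. Among granule proteins of neutrophils, MPO stood at 2.42 to 2.81, ELANE at 2.33 to 2.65 and CAMP at 3.15 to 3.63 over the 9 arrays. LTF ran from 3.05 to 5.14, highest in control replicate 2, and MMP9 from 2.61 to 4.58, highest in control replicate 1. Between the treated groups MMP9 was higher (0.37 ± 0.21) and ELANE lower (-0.08 ± 0.06), both without overlap. The lower quartile of all signals was 2.71 and the median 4.21. The count of higher markers was 2 without stimulated replicate 1, 2 without superovulated replicate 1 and 2 among probe sets whose deposited digits had a single reading. S100A8 and S100A9 reach signals above 10 and are left out of that last setting, which does not test them. With the replicate number as a block 1 marker was lower.

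Lymphocyte lists gave few genes at unadjusted p under 0.05, beside 4.89% higher and 4.18% lower over all genes. Among 37 T and NK cell markers 1 was higher and 1 lower: GNLY, a cytotoxic granule protein, had 6.20, 4.39 and 6.73 in stimulated and 4.45, 4.19 and 3.46 in superovulated animals (-1.74 ± 0.65, SE), and CD5, which is dim here, 0.16 ± 0.05. CD8A, the coreceptor of cytotoxic T cells, had -1.04 ± 0.47 with overlap. Of 11 B cell and plasma cell markers 0 reached an unadjusted p under 0.05. Of 23 genes of antigen presentation, 1 was higher and 1 lower. BOLA-DMB, a chain of the class II peptide editor, had 8.00, 7.99 and 7.92 in stimulated and 7.22, 7.07 and 7.05 in superovulated animals (-0.86 ± 0.29), close within each group. BOLA-DQA2, a polymorphic class II chain, had 3.22, 3.71 and 9.37 against 9.23, 9.14 and 9.50, so that a single stimulated animal matched the superovulated animals. Its difference of 3.86 was 5.82 without stimulated replicate 3 and 2.03 with its probe sets averaged.

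Chemokines and cytokines as a list lay near all genes. Among 57 of them 2 were lower (3.51% against 4.18% of all genes), CCL3 and CCL4, which signal through the same receptor, and 1 was higher (1.75% against 4.89%), LIF at 0.16 ± 0.07 (SE), and the median log2 fold change was 0.021, with 33 above 0. CCL4 had -1.02 ± 0.36 with overlap, or -0.61 without stimulated replicate 1. Among 45 complement and coagulation genes 4 were lower (8.89% against 4.18%) and 2 higher (4.44% against 4.89%). C1S, a protease of the C1 complex, was lower, at 12.65, 12.97 and 13.46 in stimulated and 12.18, 11.66 and 12.62 in superovulated animals (-0.87 ± 0.28). C8B, a part of the membrane attack complex, was higher, at 3.50, 3.59 and 3.44 against 4.63, 4.40 and 4.13 (0.88 ± 0.20). Another C8B probe set, dim on all arrays, gave -0.099, and the mean of both was 0.39.

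**Figure D4:**
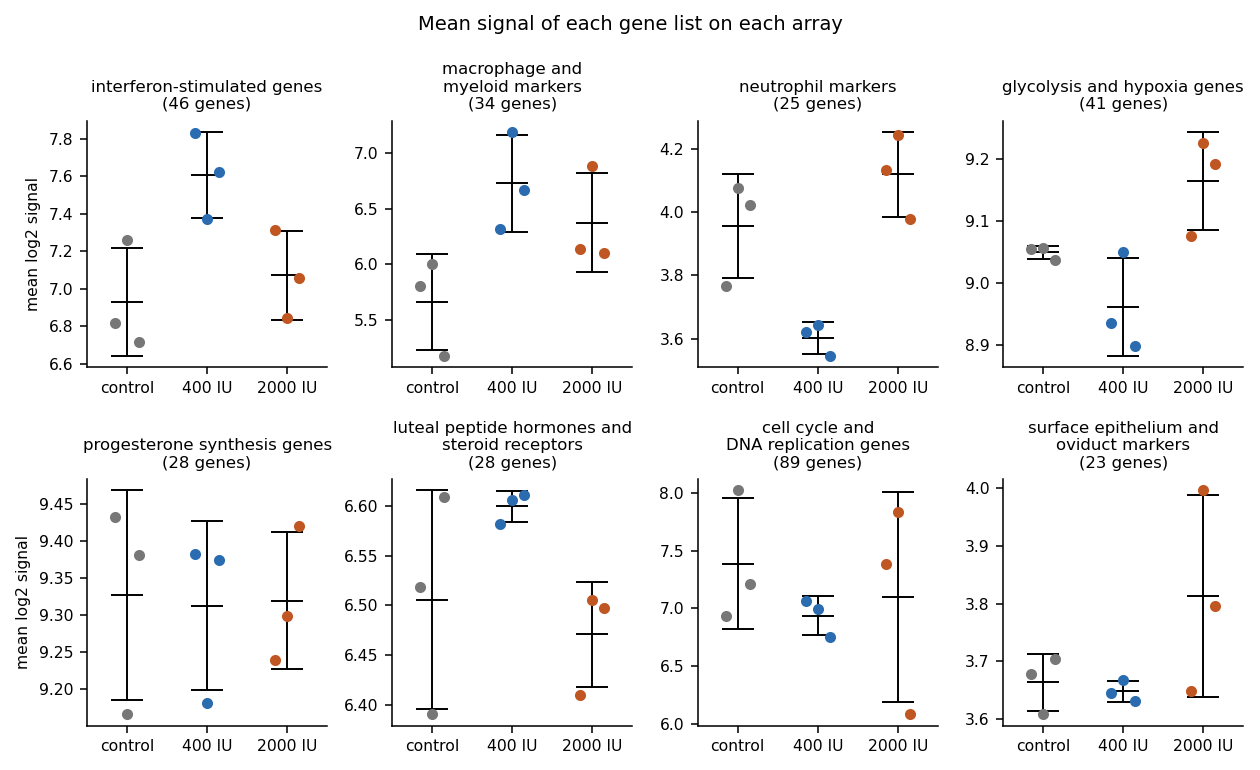
Mean log2 signal (y axis, a separate scale for each panel) of the genes of 8 lists on each of the 9 arrays, with points for animals, a line for the group mean and bars for the SD over 3 animals. The treated groups are separate for interferon-stimulated genes, neutrophil markers, glycolysis and hypoxia genes and luteal peptide hormones and steroid receptors, and overlap for the other 4 lists, and the cell cycle list ranges from 6.08 to 7.83 within the superovulated group.

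Glycolysis and hypoxia genes had the largest share of higher genes in superovulated glands. Of 41 genes, 11 were higher at unadjusted p under 0.05 (26.8% against 4.89% of all genes) and 0 lower, with a median log2 fold change of 0.15. For 13 (31.7% against 7.13%) the groups did not overlap. The mean log2 signal of the list was 8.94, 9.05 and 8.90 in stimulated, 9.07, 9.23 and 9.19 in superovulated and 9.04 to 9.06 in control animals, so the lowest superovulated and the highest stimulated animal nearly met. PKM, the pyruvate kinase of most tissues, had 7.10, 7.92 and 7.40 against 8.42, 8.90 and 8.40, a difference of 1.10 ± 0.22 (SE) with an adjusted p of 0.316. PFKL, a phosphofructokinase, had 6.92, 7.14 and 6.90 against 7.57, 8.13 and 7.80 (0.85 ± 0.19). HK1, which traps glucose as its phosphate, had 10.21, 10.24 and 10.02 against 10.64, 10.60 and 10.60 (0.46 ± 0.07, adjusted p = 0.246). TPI1, the triose phosphate isomerase, had 0.42 ± 0.10, and SLC16A3, a lactate exporter, 1.04 ± 0.33 with overlap (0.47 with the SLC16A3 probe sets averaged).

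The remaining higher genes of glycolysis differed by small amounts: EGLN2, an oxygen-sensing prolyl hydroxylase, 0.29, GAPDH 0.21, HK3, PGAM2 and ENO1 0.20 each, and PGAM1 0.17. HK3, at 2.80 to 3.21 in the treated animals, and PGAM2, at 3.53 to 3.93, were dim and lay below the median of all signals, 4.21. The hypoxia factor HIF1A (0.15 ± 0.07, SE) and the kinase PGK1 (0.16 ± 0.07) had separate groups but did not reach an unadjusted p under 0.05. Lactate dehydrogenase A, LDHA, had 0.15 ± 0.12 in its brightest probe set and -0.18 to 0.88 in the others, and its partner LDHB 0.02 ± 0.08, and the glucose importer SLC2A1 0.01 ± 0.19. Among probe sets whose deposited digits had a single reading, which leaves out those with signals of 10 and above, 6 were higher. Without stimulated replicate 3, 7 were higher. The median of the list stayed between 0.14 and 0.17 with any 1 array left out.

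Genes of protein folding, protein breakdown and redox defence also had more higher than lower members at that threshold. Of 36 endoplasmic reticulum genes 4 were higher (11.1% against 4.89% of all genes) and 0 lower (against 4.18%): SEC61G, a subunit of the protein translocation channel, at 0.28 ± 0.07 (SE), the oxidase ERO1A at 0.29 ± 0.11, the chaperone cofactor SDF2L1 at 0.26 ± 0.08 and HSP90B1, a lumenal chaperone, at 0.24 ± 0.10. ERO1A had 0.14 with its probe sets averaged, and HSP90B1 had 0.15 without superovulated replicate 2. This count was 8 without superovulated replicate 1 and 2 without stimulated replicate 1, stimulated replicate 2 or superovulated replicate 2. Of 40 proteasome genes 6 were higher (15% against 4.89%) and 3 lower (7.5% against 4.18%). The higher ones were PSMA1 (0.25), PSMC2 (0.20), PSMG2 and PSMD6 (0.19 each), PSMC6 and PSMD2 (0.16 each), which build the constitutive particle and its cap or help assemble it. The difference of PSMD6 changed sign when its probe sets were averaged, and those of PSMC2 and PSMC6 were then 0.11 and 0.054.

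The lower proteasome genes were PSMD13 (-0.22 ± 0.08, SE), PSME2, an interferon-inducible activator subunit (-0.33 ± 0.12), and PSMB10, a catalytic subunit of the immunoproteasome that also stands in the interferon list (-0.53 ± 0.22, or -0.33 without stimulated replicate 1). The other immunoproteasome subunits PSMB8 (-0.47 ± 0.40) and PSMB9 (-0.05 ± 0.15) did not reach that threshold. The count of higher proteasome genes was 2 without stimulated replicate 3 and 3 without stimulated replicate 2, and it was 0 among probe sets whose digits had a single reading. The count of lower ones was 0 without stimulated replicate 1 or 3 and 1 without superovulated replicate 2.

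Of 42 antioxidant genes 5 were higher (11.9% against 4.89% of all genes) and 2 lower (4.76% against 4.18%), with a median of 0.014. The metallothionein MT1A, which binds zinc and copper, had 7.51, 7.98 and 5.99 in stimulated and 10.93, 10.65 and 9.08 in superovulated animals, a difference of 3.06 ± 0.91 (SE) with an adjusted p of 0.423. MT2A, its paralogue, had 1.99 ± 0.68. The paralogues are similar in sequence, and cross-hybridisation between their probe sets was not tested. HMOX2, the constitutive haem oxygenase, had 9.16, 8.87 and 8.75 against 9.69, 9.84 and 10.31 (1.02 ± 0.23). GSR, which restores reduced glutathione, and GSTO1, a glutathione transferase, differed by 0.33 ± 0.11 and 0.36 ± 0.13. GCLC, the catalytic subunit of the first enzyme of glutathione synthesis, was lower, at 5.85, 6.76 and 6.95 against 5.46, 4.05 and 5.61 (-1.47 ± 0.47, or -0.98 without superovulated replicate 2), as was SOD1, a superoxide dismutase (-0.26 ± 0.11). Without stimulated replicate 3, 2 antioxidant genes were higher and 0 lower, without stimulated replicate 2, 4 were lower, and 1 was lower without stimulated replicate 1 or superovulated replicate 2.

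The machinery of progesterone synthesis showed small differences. STAR had a log2 fold change of -0.12 ± 0.09 (SE), CYP11A1 -0.09 ± 0.11 and HSD3B1 -0.13 ± 0.08, all with overlapping groups and adjusted p of 0.616 to 0.837. Of 28 genes of the list 1 was higher (3.57% against 4.89% of all genes), 0 were lower (against 4.18%), and the median was -0.048. That gene was TSPO, a cholesterol-binding protein of the outer mitochondrial membrane, with 10.38, 10.51 and 9.38 in stimulated and 10.83, 11.13 and 11.14 in superovulated animals (0.94 ± 0.27, adjusted p = 0.408). Stimulated replicate 3 was its lowest value by a wide margin, and without that array the difference was 0.59. Among 15 genes of oestrogen and androgen synthesis, HSD11B1, which regenerates cortisol, was higher at 1.22 ± 0.42, with overlap. Aromatase, CYP19A1, had -0.82 ± 0.39 and overlapped (-0.18 with its probe sets averaged). Of 35 genes of cholesterol synthesis and uptake 1 was lower, LSS, which closes the sterol ring, at -0.40 ± 0.13, without overlap (-0.19 with its probe sets averaged).

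Receptors of luteal hormones were followed individually. LHCGR, the receptor that binds luteinizing hormone and eCG, had 6.49, 5.97 and 6.21 in stimulated and 6.54, 6.62 and 6.52 in superovulated animals. The superovulated values were the higher ones, 0.34 ± 0.37 (SE) on the log2 scale with an adjusted p of 0.799. PRLR, the prolactin receptor, had 2.94, 3.97 and 3.19 against 2.30, 2.21 and 2.14 (-1.15 ± 0.27, adjusted p = 0.353). The superovulated values for PRLR were below the lower quartile of all signals, 2.71, as were those of control replicates 1 and 3. PTGFR, the receptor through which prostaglandin F2 alpha ends luteal life, was bright and nearly equal (-0.09 ± 0.12), with a sign that turned without superovulated replicate 2. PGR, the progesterone receptor, was dim at 2.23 to 2.38 on all arrays, with a difference of 0.05 ± 0.06. Over the 30 genes of gonadotropin, prolactin and growth hormone signalling PRLR was the one gene at unadjusted p under 0.05 (3.33% lower against 4.18% of all genes).

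Luteal peptide hormones and steroid receptors had separate list means, at 6.58 to 6.61 in stimulated and 6.41 to 6.50 in superovulated animals. The median log2 fold change was only -0.028, with 12 genes above 0 and 16 below. The difference of the list means, -0.13, takes in large single differences, those of INSL3 (-2.45) and SCG5 (-1.36) among them. At unadjusted p under 0.05, 3 of 28 genes were lower (10.7% against 4.18% of all genes) and 0 higher (against 4.89%). PTHLH, parathyroid hormone-related protein, had 12.92, 13.12 and 13.02 against 12.72, 12.61 and 12.55, a small difference with little spread (-0.40 ± 0.08, SE, adjusted p = 0.302). SCG5, a chaperone of prohormone convertase, had 8.21, 8.91 and 8.74 against 6.99, 7.01 and 7.80 (-1.36 ± 0.40), and RXRA, a partner of nuclear receptors, -0.26 ± 0.11. OXT, the luteal peptide oxytocin, was equal within its spread (-0.08 ± 0.14), and its sign turned without superovulated replicate 1. INSL3, the insulin-like peptide of theca and luteal cells, had 12.77, 10.44 and 13.42 in stimulated and 9.98, 10.91 and 8.38 in superovulated animals. Its large mean difference of -2.45 ± 1.09 came with overlap and an adjusted p of 0.529. Without stimulated replicate 2, or in the fit of only the 6 eCG arrays, 5 genes of the list were lower. With the replicate number as a block 2 were higher.

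Prostaglandin and luteolysis genes included some of the larger single differences. Of 22 genes 1 was higher (4.55% against 4.89% of all genes) and 2 were lower (9.09% against 4.18%). PTGDS, a prostaglandin D2 synthase and lipocalin, had 8.42, 5.71 and 5.23 in stimulated and 9.45, 8.83 and 10.58 in superovulated animals (3.17 ± 1.08, SE, adjusted p = 0.452). PRKCB, a protein kinase C isoform, had 10.35, 10.01 and 10.10 against 9.73, 6.89 and 6.45 (-2.46 ± 0.76). Superovulated replicate 1 stood near the stimulated animals for PRKCB, and without that array the gene passed, at -3.49 with an adjusted p of 0.0333. PTGR2, which reduces prostaglandin metabolites, had 10.11, 10.09 and 10.21 against 9.53, 9.16 and 9.30 (-0.81 ± 0.15, adjusted p = 0.293).

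In the activin, inhibin and follistatin list FSTL3 was the one gene of 31 at unadjusted p under 0.05 (3.23% higher against 4.89% of all genes). Follistatin itself, FST, lay the other way, with 10.24, 10.01 and 9.65 in stimulated and 6.79, 9.63 and 9.18 in superovulated animals (-1.43 ± 0.83, SE, adjusted p = 0.622). Superovulated replicate 1 lay far below the others for FST. INHBA, the activin beta A subunit, had -0.43 ± 0.29 and overlapped. The median of the list was 0.055.

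Angiogenic factors and receptors had 3 higher (6% against 4.89% of all genes) and 4 lower (8% against 4.18%) of 50 genes, and a median of 0.0011. VEGFA, the main endothelial growth factor of the gland, had 11.92, 11.90 and 11.87 in stimulated and 11.68, 11.44 and 11.33 in superovulated animals (-0.42 ± 0.13, SE, adjusted p = 0.444). Another VEGFA probe set gave 0.25 ± 0.29 with overlap, and the mean of both was -0.081. Its receptor FLT1 had 9.55, 9.66 and 9.37 against 8.95, 8.77 and 8.66 (-0.73 ± 0.20), without overlap. The other FLT1 probe sets were dim and gave -0.14 and -0.0035, and the mean over all of them was -0.29. The main signalling receptor, KDR, was dim in its probe set (-0.12 ± 0.07). ANGPT1, the TEK ligand that stabilises vessels, had 5.14, 5.06 and 5.62 against 4.47, 4.48 and 4.18 (-0.89 ± 0.21). FGF1, an angiogenic fibroblast growth factor, had 12.46, 12.66 and 12.16 against 13.26, 13.24 and 14.04 (1.09 ± 0.25, adjusted p = 0.353), but its sign turned when its probe sets were averaged. Counts of higher genes were 5 without stimulated replicate 2 or superovulated replicate 3.

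Markers of stromal cells set beside these genes lay mostly above 0, and endothelial markers did not. Log2 fold changes were positive for 21 of 22 pericyte and smooth muscle markers, 39 of 49 fibroblast and matrix genes and 21 of 27 metalloproteinases and inhibitors, but for 13 of 33 endothelial markers, beside 4854 of all 9128 genes. With 1 array left out the median ran from 0.14 to 0.48 for pericyte and smooth muscle markers, and from 0.013 (without superovulated replicate 2) to 0.33 (without stimulated replicate 2) for fibroblast and matrix genes. The list mean of each of these stromal lists overlapped between the groups. Pericyte and smooth muscle markers had 8.41, 9.03 and 8.47 in stimulated and 9.13, 9.15 and 8.60 in superovulated animals. All superovulated values lay above all stimulated values for 1 of 22, 0 of 49 and 6 of 27 genes, in that order, against 7.13% of all genes. The genes of a list come from the same animals, so the counts of signs carry no test. The part of stromal and endothelial cells in the other differences was not tested. Of 33 endothelial markers 2 were higher (6.06% against 4.89% of all genes) and 1 lower (3.03% against 4.18%). List means overlapped at 7.60 to 8.19 in stimulated and 7.63 to 8.10 in superovulated animals. PDPN, a glycoprotein of lymphatic endothelium that other cells also make, had 8.47, 8.90 and 7.24 against 10.89, 10.54 and 9.72 (2.18 ± 0.45, SE, adjusted p = 0.329). Of 22 pericyte and smooth muscle markers 0 reached an unadjusted p under 0.05, with a median of 0.26. Of 49 fibroblast and matrix genes 2 were higher (4.08% against 4.89%), both with overlap. These were COL15A1, a basement membrane collagen (0.57 ± 0.20), and MFAP5, a microfibril protein (1.71 ± 0.68, or 1.05 without superovulated replicate 2). Of 27 metalloproteinases and inhibitors, 2 were higher (7.41% against 4.89%), TIMP1 at 0.18 ± 0.08 and the dim MMP3 at 0.25 ± 0.10 (0.050 with its probe sets averaged). In the insulin-like growth factor system, IGF1R, the receptor, had 0.52 ± 0.14 without overlap, and another IGF1R probe set 0.039. INSR, the insulin receptor, had -1.59 ± 0.55 with overlap, and its other probe sets ran from -1.09 to 0.15.

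Cell cycle genes did not separate the groups. Of 89 genes 0 reached an unadjusted p under 0.05, although the median was 0.16. The list mean was 7.38, 7.83 and 6.08 in the superovulated animals, which were both the highest and the lowest of the 6, and between 6.75 and 7.07 in the stimulated animals. The median was -0.15 without superovulated replicate 2 and 0.51 without superovulated replicate 3. Of 64 cytosolic ribosomal protein genes 0 reached that threshold and the median was -0.036 (-0.00973 after median centring), but 13 (20.3% against 5.75%) were lower in every superovulated than in every stimulated animal. Of 79 oxidative phosphorylation genes 1 was lower, NDUFB10, a subunit of complex I (-0.22 ± 0.09, SE).

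Markers of epithelium were uneven between animals. KRT18, a keratin of simple epithelia, had 8.79 in superovulated replicate 2 against 4.46 to 5.36 in the 5 other eCG animals, and KRT19 had 5.03 against 2.39 to 2.61. The mean of the 23 surface epithelium and oviduct markers was 4.00 in that animal and 3.63 to 3.80 in the other 5. For 6 of the 23 (26.1% against 7.13% of all genes) all superovulated values lay above all stimulated values, and for 2 (8.70% against 5.75%) below. The list means lay below the median of all signals, 4.21. Those 6 include the dim CLDN7 (2.58 to 2.84, a difference of 0.15) and AQP5 (2.06 to 2.41, 0.18), where the lower quartile was 2.71. KRT18 and KRT19 also stand in the granulosa and follicle list, whose mean was 7.21 in superovulated replicate 2 and 6.62 to 6.88 in the other 5. The part of this array in the differences given above was not tested beyond leaving it out.

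**Figure D5:**
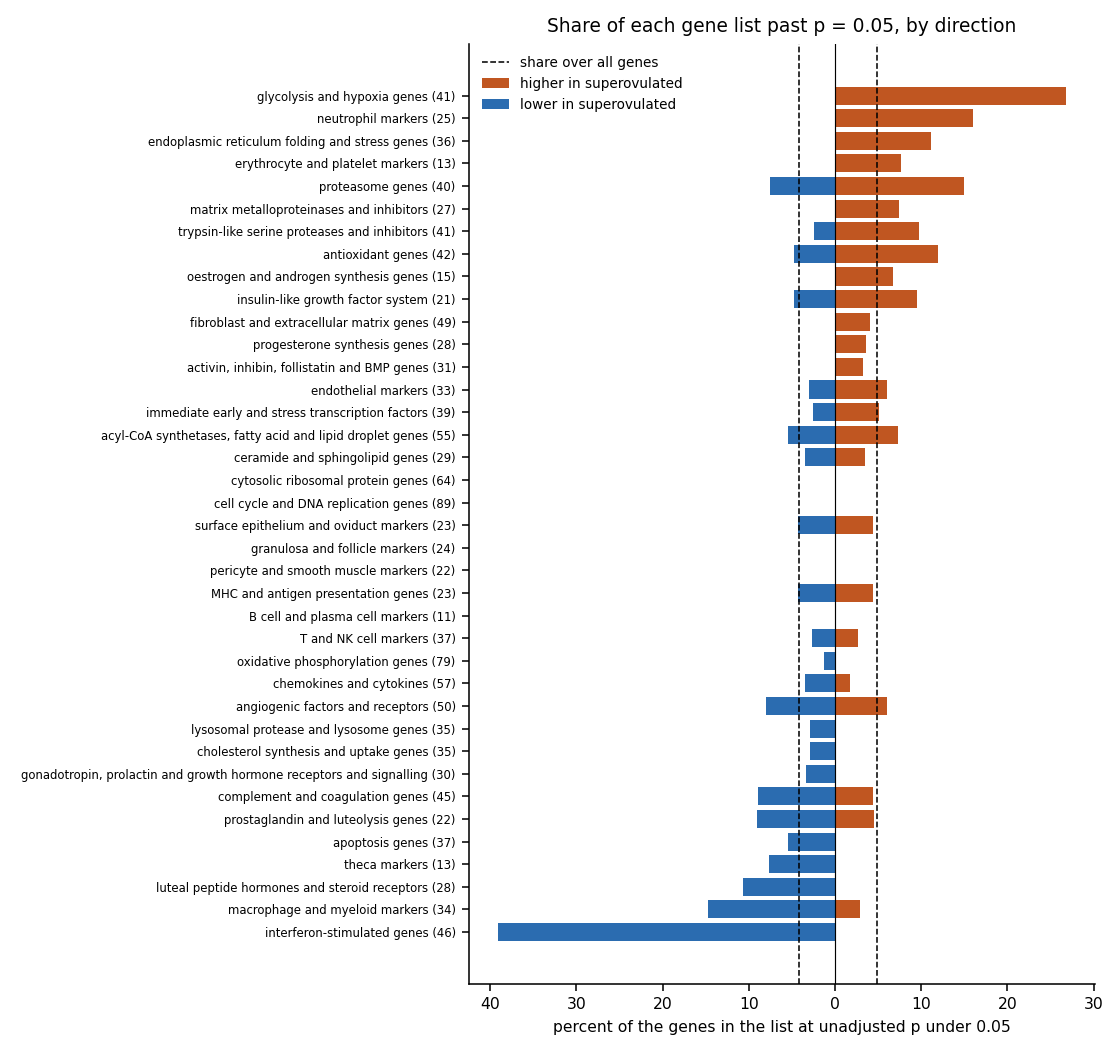
Percent of the genes of each of 38 lists (x axis, number of genes in brackets) at unadjusted p under 0.05, with genes higher in superovulated glands to the right in orange, lower genes to the left in blue, and dashed lines at the shares over all 9128 genes, 4.89% and 4.18%. Interferon-stimulated genes reach 39.1% on the lower side and glycolysis and hypoxia genes 26.8% on the higher side, and most other lists lie near the dashed lines.

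The lists not described so far had few genes at unadjusted p under 0.05, beside 4.89% higher and 4.18% lower over all genes. Immediate early and stress transcription factors had 2 of 39 higher, ATF3 and KLF10, a factor induced by transforming growth factor beta (0.45 ± 0.12, SE), and 1 lower, GADD45B, a stress sensor (-0.53 ± 0.16). Ceramide and sphingolipid genes had 1 of 29 higher, the desaturase DEGS1 (0.27 ± 0.08), and 1 lower, CERT1, which carries ceramide to the Golgi (-0.33 ± 0.08), both without overlap. Apoptosis genes had 2 of 37 lower, CASP4, an inflammatory caspase (-0.58 ± 0.17), and BCL2L2, a survival factor (-0.41 ± 0.14). Lysosomal genes had 1 of 35 lower, the protease CTSB (-0.32 ± 0.12, or -0.12 over all CTSB probe sets). Theca markers had 1 of 13 lower, ALDH1A1, a retinal dehydrogenase (-0.51 ± 0.21), granulosa and follicle markers had 0 of 24 in either direction, and erythrocyte and platelet markers had 1 of 13 higher, the dim ALAS2 (0.22 ± 0.09).

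The control animals give the position of each treated group against glands without eCG. Among the 446 genes higher in superovulated glands at unadjusted p under 0.05, the control mean lay nearer the superovulated mean for 252 (56.5%). It lay between both means for 357, beyond the superovulated mean for 46 and beyond the stimulated mean for 43. Among the 382 lower genes, the control mean lay nearer the superovulated mean for 227 (59.4%). It lay between both means for 281, beyond the superovulated mean for 67 and beyond the stimulated mean for 34. PRSS2, S100A9, FSTL3, ACSM1 and ACSF2 are among those with controls nearer the superovulated animals, and ATF3, NSD3, PTHLH and VEGFA among those nearer the stimulated animals. Both comparisons with the controls share these arrays, so the counts describe positions and carry no test.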

How the data were processed

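RNA of 9 corpora lutea was measured on Affymetrix bovine arrays, 1 animal each. The deposited value table holds 24128 probe sets, 112 of them array controls, as digit runs that had lost the decimal mark, so the unit is no standard one. The mark was restored from the values: a limit of 16 leaves 1 reading for most runs, 15.5% of cells were open to another, and these were settled by the other arrays of the probe set or, where all 9 were open, by their spread, ties and level at a posterior of 0.95 (1.75 wrong readings expected). Of the non-control probe sets 65 stayed undecided and were left out. The values then run from 0.85 to 15.19 and were read as log2 signals, since no source used here gives the authors' scale, summarisation or normalisation. Array medians were 4.18 to 4.24, and nothing further was scaled. Arrays have no read depth, so precision depends on there being 3 of them per group. A fold change would differ if the log base were another.

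Gene symbols are those of GEO's platform annotation: 13292 probe sets carry 1 symbol, 86 several and 10638 none. Of 9155 symbols 8550 stand in the RefSeq gene table of NIAB-ARS_B.indTharparkar_mat_pri_1.0. The probe set with the highest mean stands for a gene. All 9 arrays were fitted with limma 3.58.1 (R 4.3.3), 1 mean per group, eBayes, 2-sided tests and Benjamini-Hochberg adjustment over 23951 probe sets. The script was tested on simulated data. Named genes were up to 10 per direction (passing ones first, then the smallest p among genes with separate groups whose higher group mean was at least the median signal of 4.21), up to 4 per list with the smallest p, and 15 followed genes. Other genes named were picked from the lists after their values were seen. The comparison, lists and genes were chosen with earlier results of these data known.

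Same-numbered animals of both groups deviated together from their group means, with correlations of 0.20, 0.38 and 0.15 over probe sets. Differently numbered animals had -0.26 to 0.083. Deviations within a group sum to 0, so these correlations depend on each other. The numbers were also tried as a block. The labels do not say what a number stands for. Other alternatives were the 6 arrays alone, median centring, quantile normalisation, removal of the dimmest 25% of probe sets, single-reading probe sets, a variance trend, averaged probe sets and each array left out.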

Additional observations from a re-analysis of the deposited data

How the results depend on the processing

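PRSS2 passed, and was higher in superovulated glands, under all 16 alternatives on probe sets and with averaged probe sets. The replicate number was also used as a block, which treats same-numbered animals as pairs although the labels name no pairing. PRSS2 then had an adjusted p of 0.00474, 1146 probe sets were higher and 1601 lower at unadjusted p under 0.05, and no other probe set passed. Counts at the unadjusted threshold within the lists did move, most for the acyl-CoA synthetase, fatty acid and lipid droplet genes, with 10 lower against 3. Median centring, quantile normalisation and probe sets with a single reading each gave 2 probe sets passing as higher. The added one is a second probe set of BPNT2, a phosphatase of the Golgi, named after its values were seen, with a log2 fold change of 0.95 and an adjusted p of 0.0527 in the values as deposited. With 1 array left out, 0 to 2 probe sets passed as lower: 1 without stimulated replicate 3, 2 without superovulated replicate 1 and 1 without superovulated replicate 3. The count of lower probe sets at unadjusted p under 0.05 was 828 to 1471 with 1 array left out, lowest without stimulated replicate 3.

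Some list medians moved by more than the spread between animals. Without the dimmest 25% the median was -0.17 for antigen presentation and -0.11 for luteal peptide hormones. Among probe sets with a single reading it was -0.028 for antigen presentation, 0.056 for cholesterol synthesis, 0.012 for luteal peptide hormones, 0.11 for oxidative phosphorylation and -0.0678 for antioxidant genes. That alternative drops most bright probe sets. Ribosomal genes had -0.00973 after median centring and -0.00761 after quantile normalisation, and the median of all genes was 0.039 after median centring. With 1 array left out, medians ran from -0.074 to -0.0030 for luteal peptide hormones, -0.0089 to 0.087 for antioxidant genes, -0.022 to 0.070 for apoptosis genes and -0.12 to -0.0030 for lysosomal genes. Counts within the lists under these alternatives were added after seeing the data. Near the dim end of the scale the signal does not separate a low level from none.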

Other observations

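Some probe sets of the class I and class II histocompatibility genes, which differ between animals in their alleles, had among the widest ranges of any gene. BOLA-N, a class I gene, had log2 signals of 2.68, 2.52 and 8.47 in stimulated and 11.08, 10.08 and 9.90 in superovulated animals, with a difference of 5.80 ± 2.06 (SE) and an adjusted p of 0.464. The decimal mark of its largest values was open and was set from the other arrays. In the controls it had 7.31, 2.18 and 9.11, so dim and bright animals occurred in both of these groups. TNNT1, a troponin of slow muscle, and TAC1, the precursor of substance P, also had large differences with overlap, at -3.2 and 2.6.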
